A study of Mus musculus with 6 samples.

Results

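The phagocyte NADPH oxidase genes examined here are Cybb, Cyba, Ncf1, Ncf4 and Rac2, and their members are the accessible regions that overlap a gene body or the 20 kb on either side of it (mm10, GENCODE M21 gene bounds). They hold 45 of the 112852 regions formed by merging the peaks of all samples. ATAC-seq, which maps open chromatin through adapter insertion by the Tn5 transposase, was performed on 3 control and 3 MMF-treated samples of L-GMP cells, the leukemic granulocyte-macrophage progenitors that carry the leukemia stem cell (LSC) activity of the murine MLL-AF9 model of acute myeloid leukemia. The labels give the genotype of both groups as WT, the tissue as blood and culture in medium with IL-3, and they set the MMF treatment at 24 h, while the methods and the figure legends of the study differ on dose and time. MMF (mycophenolate mofetil) is a prodrug that blocks inosine monophosphate dehydrogenase, the enzyme that commits purine synthesis to guanine nucleotides. The leukemia is driven by an introduced MLL-AF9 fusion, which control and treated cells share, and the labels do not say whether the 3 samples of a group came from separate mice or cultures, so the p-values measure the spread between these samples.

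The oxidase of phagocytes passes electrons from cytosolic NADPH across the membrane to oxygen, and the superoxide it makes is used to kill ingested microbes. Cybb encodes gp91phox, the catalytic subunit, and Cyba encodes p22phox, its partner in the membrane. Ncf1 (p47phox) and Ncf4 (p40phox) encode cytosolic subunits that organise the complex when the cell is activated, and Rac2 encodes the small GTPase of blood cells that joins them at the membrane. The genes are turned on as granulocytes and monocytes mature, and PU.1 is a known activator of several of them. Loss of the catalytic, membrane or cytosolic subunits causes chronic granulomatous disease.

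The lists held 58496 to 63911 peaks in control and 80893 to 86556 peaks in MMF-treated LSCs, with a median summit of 14 to 19 reads. The level of a peak is given below as the reads over its summit divided by the genome-wide background of the sample, the reads expected over 150 bp, so it is scaled to depth and can be set beside other regions on the same length. Regions with a peak in all 6 lists are called shared. Among the markers of the sorted progenitor, the promoters of Kit, Hoxa9 and Meis1 had a peak in all 6 lists (Meis1 lower with MMF, -0.40 ± 0.14, limma adjusted p = 0.026), Cd34 lacked one in 1 MMF list, Mpo had none in any list, and Fcgr3 and Elane had a peak in 1 control list and in all 3 MMF lists. Of the neutrophil markers, the Camp promoter was higher with MMF (log2 fold change 1.55 ± 0.23, SE, limma adjusted p = 1.41e-07) and Ltf had a peak in the MMF lists alone, Mmp8 did not pass (0.39 ± 0.19, adjusted p = 0.136), Cxcr2 had a peak in 2 MMF lists and Mmp9 in none. Of the monocyte and macrophage markers, Ms4a7 was higher (1.14 ± 0.28, adjusted p = 0.00119), Csf1r had a peak in 2 control and 3 MMF lists at 12.4 and 13.0 against 31.0 to 36.3, and the other 3 of the 5 did not pass. Of the lymphoid markers, Cd3e, Cd3g, Cd4, Cd79a and Pax5 had no promoter peak, Cd79b had one in 2 MMF lists, and Cd5, Bcl11b and Ebf1 had one in all 6 lists and did not pass the test (Cd5 37.6 to 50.8 in control and 52.8 to 66.5 in MMF samples, 0.39 ± 0.18, adjusted p = 0.112). All 5 markers of tissues other than blood had no promoter peak. Summed over each list of 5 markers, with an absent peak taken as 0, the promoter level was 57.8 to 61.8 in control and 120 to 148 in MMF samples for neutrophils and 80.6 to 99.8 and 136 to 157 for monocytes and macrophages. It was 50.6 to 62.9 and 72.6 to 84.3 for T cells, and 122 to 150 and 130 to 136 for erythroid cells, and over the 7 progenitor markers it was 236 to 245 and 253 to 307. The neutrophil, monocyte, T cell and progenitor sums were thus all higher in every MMF sample than in every control, as some oxidase regions were, and their part in the results was not tested. In bulk samples, a changed share of mature cells and a change within each cell cannot be told apart.

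The sequences at 5 summits and at 1 start are printed here with their motif matches marked. Whether a match has a part in any change was not tested. Each summit window is 200 bp of GRCm38 read on the strand of the gene. They are shown because the first 3 belong to called regions of Cybb and Ncf1 that stayed called with any 1 sample left out, and the next 2 are promoter summits that hold the PU.1 motif.
Cybb intron, 6437 bp downstream of the start (chrX:9462787-9462986, minus strand): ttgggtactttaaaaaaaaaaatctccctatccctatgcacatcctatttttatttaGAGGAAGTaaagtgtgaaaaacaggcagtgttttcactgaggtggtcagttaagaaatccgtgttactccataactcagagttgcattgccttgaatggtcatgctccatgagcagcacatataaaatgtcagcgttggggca
Cybb intron, 8591 bp downstream of the start (chrX:9460633-9460832, minus strand): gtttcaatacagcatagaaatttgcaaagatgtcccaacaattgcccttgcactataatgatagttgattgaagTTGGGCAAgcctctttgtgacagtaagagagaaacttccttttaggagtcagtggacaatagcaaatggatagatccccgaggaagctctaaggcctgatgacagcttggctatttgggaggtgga
Ncf1 upstream region, 7391 bp before the start (chr5:134236916-134237115, minus strand): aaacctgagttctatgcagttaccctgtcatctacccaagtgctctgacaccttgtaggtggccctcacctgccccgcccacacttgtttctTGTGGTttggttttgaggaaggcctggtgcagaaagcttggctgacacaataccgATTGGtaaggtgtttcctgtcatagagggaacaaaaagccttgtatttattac
Ncf4 promoter (chr15:78244826-78245025, plus strand): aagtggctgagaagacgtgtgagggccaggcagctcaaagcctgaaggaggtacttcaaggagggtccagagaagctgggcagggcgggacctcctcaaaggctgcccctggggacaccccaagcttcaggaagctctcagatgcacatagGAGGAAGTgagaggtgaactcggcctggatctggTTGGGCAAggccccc
Cyba promoter region, intron (chr8:122432502-122432701, minus strand): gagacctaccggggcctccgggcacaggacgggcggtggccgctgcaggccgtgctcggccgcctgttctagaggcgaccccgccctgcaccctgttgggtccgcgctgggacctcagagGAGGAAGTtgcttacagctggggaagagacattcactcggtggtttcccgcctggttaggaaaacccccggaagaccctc
Capitals mark GAGGAAGT (PU.1) in the first Cybb window, in the Ncf4 promoter and in the Cyba promoter, TTGCNNAA (C/EBP) read on the other strand in the second Cybb window and in the Ncf4 promoter, and TGTGGT (RUNX) and CCAAT (NF-Y, other strand) in the Ncf1 window. The start of Cybb itself had no peak within 1000 bp in any of the 6 lists. Its RefSeq promoter (GRCm38.p6, with its upstream flank and the first transcribed bases, chrX:9469275-9469574, minus strand) is shown because this interval was without a peak in control and MMF samples alike.
Cybb RefSeq promoter: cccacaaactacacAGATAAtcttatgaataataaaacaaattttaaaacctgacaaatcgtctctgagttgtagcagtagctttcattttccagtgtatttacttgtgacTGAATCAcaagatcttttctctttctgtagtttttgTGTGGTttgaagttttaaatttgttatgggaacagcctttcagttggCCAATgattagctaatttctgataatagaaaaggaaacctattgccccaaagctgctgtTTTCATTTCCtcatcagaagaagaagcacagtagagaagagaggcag
Capitals there mark, in order, a GATA, an AP-1, a RUNX and an NF-Y match and, at bases 254 to 263, the ETS-IRF composite motif on the other strand.

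On the depth-scaled level, the regions called higher lay mainly within the gene bounds of Cybb and around Ncf1, with others in the Ncf4 and Cyba windows. No promoter region of the 5 genes passed the test. Of the 45 regions, 26 were shared, 1 was gained (a peak in all 3 MMF lists and no control list, background 6% of all regions), 1 was lost (the opposite, background 0.182%) and 17 had another pattern. Of the 26 shared regions, 9 (34.6%) were higher with MMF and 0 lower by limma over all 41182 shared regions at an adjusted p of 0.05, beside 21.6% higher and 3.12% lower among all shared regions. By gene, 3 of 3 shared regions of Cybb were called higher, 3 of 4 of Ncf1, 2 of 6 of Ncf4, 1 of 6 of Cyba and 0 of 7 of Rac2. The median log2 fold change of the 26 was 0.30 beside 0.16 for all shared regions, and 23 of them lay above 0.

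The shared regions as a whole were shifted as well. The sample medians of the shared regions were 0.34 higher with MMF on the log2 scale, and after each sample was centred on its median the split turned from 8891 higher and 1283 lower among all shared regions to 3591 (8.72%) and 10420 (25.3%). Among the oxidase regions the centred fit left 2 called higher, 1 in Cybb and 1 upstream of Ncf1, and called 3 lower, while the median became -0.04. On ranks among the shared regions 0 of the 26 were called, with 931 higher and 235 lower among all 41182 shared regions and 23.4% of these at an unadjusted p under 0.05. In 13 of the 26 every MMF level exceeded every control level (29.1% of all shared regions did so), and in 1 every MMF level was below every control level (7.68% of all).

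**Figure D1:**
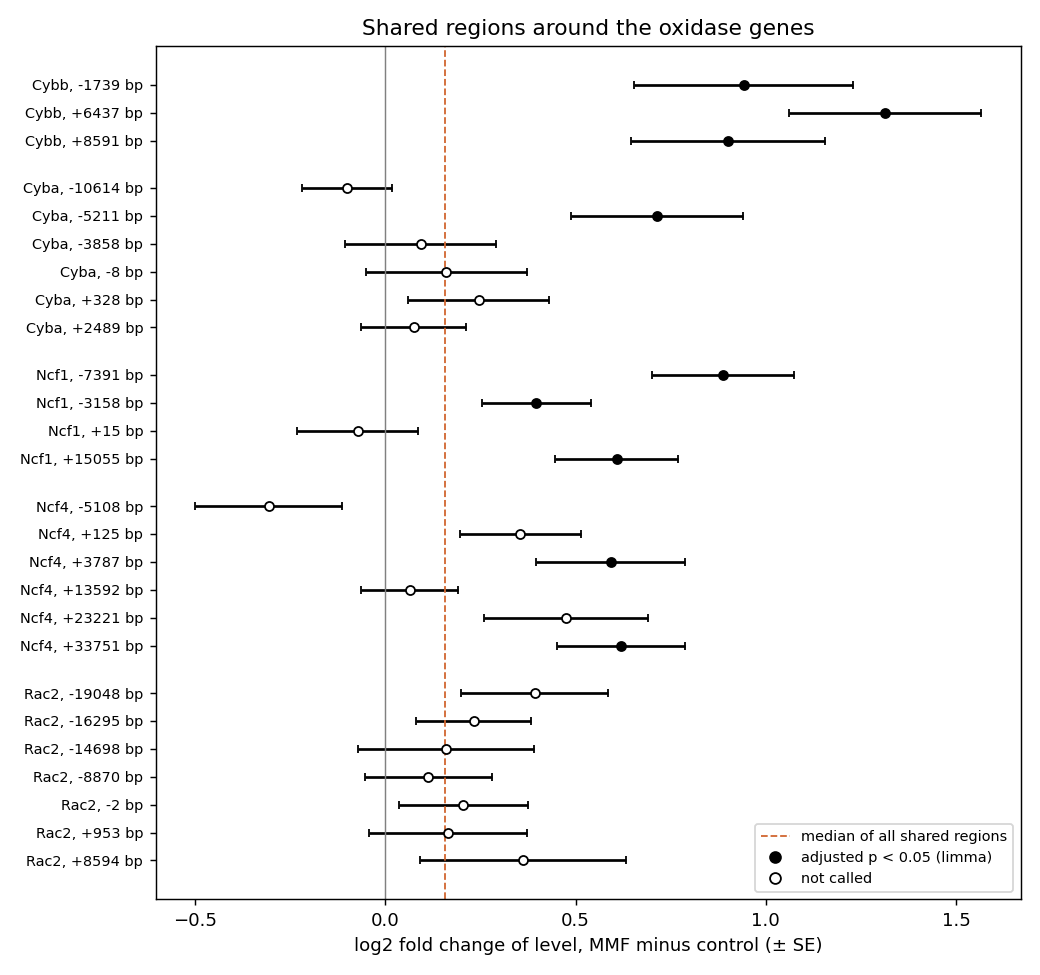
Log2 fold change of the level, MMF minus control, with its SE for each of the 26 shared regions, named by gene and by the distance of the summit from the gene's start (negative upstream). Filled points are the 9 regions called by limma, all above 0, and the dashed line is the median of all shared regions, 0.16, which the 3 Cybb regions exceed by 0.74 to 1.16.

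Cybb, the gene of the catalytic subunit, showed the largest rise. In its intron 6437 bp downstream of the start (chrX:9462743-9463095), the region with GAGGAAGT near its summit, control samples had levels of 15.1, 13.0 and 16.1, and MMF samples had 46.2, 34.0 and 34.0. Every MMF level was more than the highest control level, and the groups did not overlap. The means were 14.7 ± 1.58 in control and 38.1 ± 7.04 in MMF (SD, n = 3 each), a log2 fold change of 1.31 ± 0.25 (SE, limma adjusted p = 3.6e-05), which is 1.16 above the median of all shared regions. The call held after centring (0.97, adjusted p = 0.00177) but not on ranks among the shared regions (0.62 score units, adjusted p = 0.223).

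A second intronic Cybb region lay 8591 bp downstream of the start (chrX:9460362-9460959), and its levels were 16.5, 17.4 and 14.5 in control and 28.6, 32.6 and 31.0 in MMF samples. The groups were again apart, at 16.1 ± 1.45 and 30.7 ± 2.01 (SD, n = 3 each), with a log2 fold change of 0.90 ± 0.26 (SE, limma adjusted p = 0.00525). Both intron regions stayed called with any 1 of the 6 samples left out. The summit of the second holds a C/EBP match and no PU.1 match in 200 bp. After centring its difference was 0.56 with an adjusted p of 0.0804. On ranks among the shared regions it was 0.087 score units (limma adjusted p = 0.868). The local background there was 0.66 to 0.765 reads in control and 1.56 to 2.205 reads in MMF samples.

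The nearest accessible region to the Cybb start lay 1739 bp before it (chrX:9470887-9471319). It lay inside the gene bounds of Cybb, which reach upstream of this start, and its summit was outside the exons of the basic annotation. It was weak, with 6, 8 and 4 summit reads in control and 14, 12 and 13 in MMF samples, or levels of 8.23, 11.6 and 6.45 against 15.4, 17.0 and 19.2. The log2 fold change was 0.94 ± 0.29 (SE, limma adjusted p = 0.00992), and without control replicate 3, the lowest sample, it was 0.77 with an adjusted p of 0.0664. The call was also lost after centring (0.60, adjusted p = 0.097), and at a -log10 q of at least 2 or at equal list length the region was no longer shared and had no test. With starts widened to 2000 bp this is the only region that counts as a Cybb promoter peak. The difference of the mean log2 levels was then 1.01. The levels themselves gave p = 0.1 (exact permutation test of the means, two-sided), below which a comparison of 3 with 3 samples cannot go.

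Further into the gene Cybb peaks appeared in the MMF lists that some or all control lists lacked. The region 20703 bp downstream (chrX:9448433-9448701) was the 1 gained region of the 45, with 8, 7 and 7 summit reads in the MMF samples and levels of 8.80, 9.92 and 10.4. These are among the weakest peaks of the lists, at a percentile rank by fold enrichment of 14 to 15.7, and with the lists held to equal length the region was not gained. The region 19240 bp downstream had a peak in 2 MMF lists and no control list, and that at 16743 bp in 2 lists of each group. The Cybb window held 4, 4 and 4 peaks in control and 6, 7 and 5 in MMF samples (exact permutation test, two-sided, p = 0.1). These counts are not scaled to list length, and the whole lists were 1.38 times as long with MMF.

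**Figure D2:**
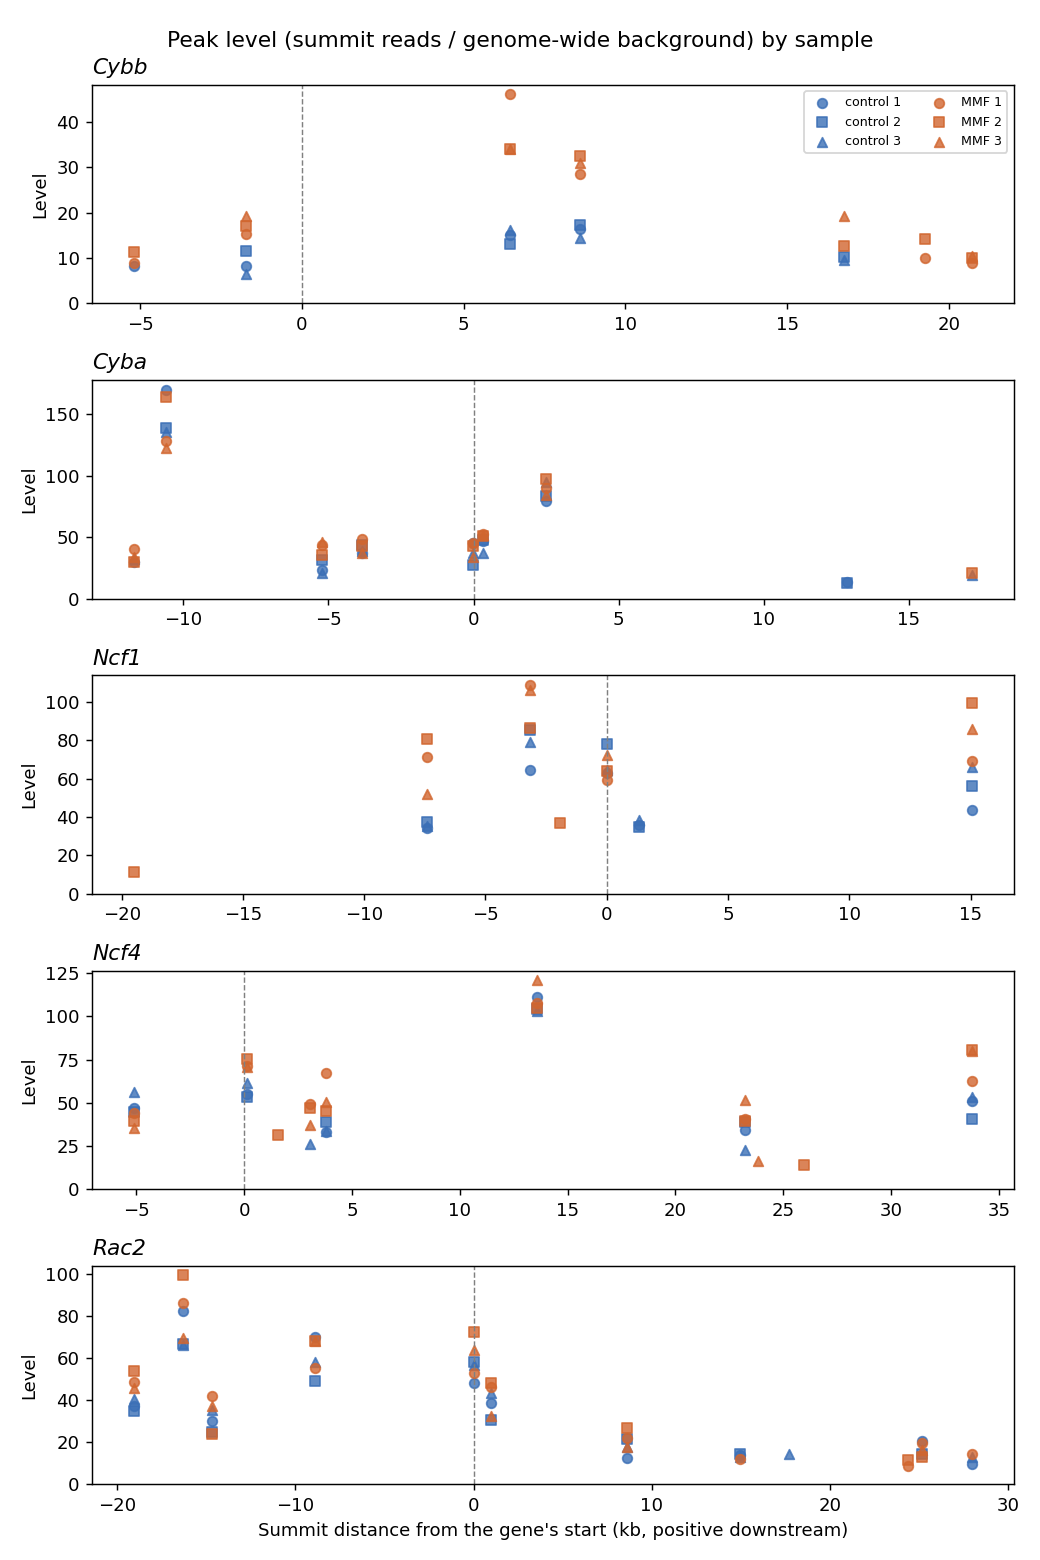
Level of every peak (summit reads over genome-wide background, each panel on its own scale from 0) against the distance of the region's summit from the gene's start, 1 panel per gene, control samples in blue and MMF samples in orange with a marker per replicate. A sample without a point has no peak there. In Cybb the groups separate at the regions -1739, 6437 and 8591 bp from the start, and no point lies within 1000 bp of the start.

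Cyba, the gene of the membrane partner, had 9 regions in its window and 6 were shared. Its promoter peak, in an intron 328 bp after the start (chr8:122432295-122432733), stood at 46.7, 47.7 and 37.1 in control and at 52.8, 51.0 and 51.7 in MMF samples. The groups did not overlap, and the lowest sample was a control. The means were 43.8 ± 5.86 and 51.8 ± 0.903 (SD, n = 3 each, exact permutation test, two-sided, p = 0.1), and limma did not call the region (log2 fold change 0.25 ± 0.19, SE, adjusted p = 0.359). Relative to the sample medians the sign turned, to -0.10. A neighbouring region at the start itself, 8 bp before it, differed by 0.16 ± 0.21 (adjusted p = 0.631).

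The 1 Cyba region called higher lay 5211 bp upstream of the start in an intron of Mvd, a gene of sterol synthesis (chr8:122437994-122438307). Levels were 23.3, 31.8 and 21 in control and 44.0, 35.4 and 45.8 in MMF samples. The log2 fold change was 0.71 ± 0.23 (SE, limma adjusted p = 0.013), and it lost the call without control replicate 3 (adjusted p = 0.0617), without MMF replicate 1 (0.0636) and without MMF replicate 3 (0.0718). The strongest region of the window was the Mvd start, at 148 ± 19.1 in control and 139 ± 22.5 in MMF samples (SD, n = 3 each), with the largest fall of the window at -0.10 ± 0.12 (limma adjusted p = 0.581). After centring that region was called lower at -0.45 (adjusted p = 0.00181). Inside Cyba, the region 2489 bp after the start was nearly level, at 86.2 ± 8.03 and 90.7 ± 6.76 (SD, n = 3 each).

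Ncf1, the gene of the organiser subunit p47phox, combined a promoter that did not pass the test with 3 called regions around it. At the promoter (chr5:134229473-134229966, summit 15 bp after the start) the levels were 63.1, 78.1 and 64.5 in control and 59.4, 63.8 and 72.4 in MMF samples. The groups overlapped across most of their range. The log2 fold change was -0.07 ± 0.16 (SE, limma adjusted p = 0.789) and the log2 difference of the promoter levels was 0.03 without control replicate 2, the highest control. After centring the region was called lower, at -0.42 (adjusted p = 0.0318).

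The region 7391 bp upstream of Ncf1 (chr5:134236634-134237189), between protein-coding genes, held the second most certain rise of the 26. Its levels were 34.3, 37.6 and 35.5 in control and 71.5, 80.8 and 51.7 in MMF samples. The controls lay close together and all MMF samples lay above them, at 35.8 ± 1.67 and 68.0 ± 14.8 (SD, n = 3 each). The log2 fold change was 0.89 ± 0.19 (SE, limma adjusted p = 0.000138), 0.54 after centring (adjusted p = 0.0162), and it stayed called with any 1 sample left out. With a peak required to cover 50% of the merged region, a setting chosen after seeing the data, this region and the Cybb regions were no longer shared and had no test.

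Both other called regions of the Ncf1 window were less certain. The region 3158 bp upstream (chr5:134231999-134232975) measured 64.5, 85.3 and 79.0 in control and 109, 86.4 and 106 in MMF samples. Its log2 fold change was 0.40 ± 0.14 (SE, limma adjusted p = 0.031), and the adjusted p was 0.2 without control replicate 1, 0.144 without MMF replicate 1 and 0.118 without MMF replicate 3. The region 15055 bp downstream lay in an intron of Gtf2ird2, a member of the GTF2I gene family (chr5:134214095-134214920), at 43.9, 56.4 and 66.1 in control and 69.3, 99.2 and 85.7 in MMF samples. It rose by 0.61 ± 0.16 (SE, limma adjusted p = 0.00295), and the adjusted p was 0.0506 without control replicate 1 and 0.0528 without MMF replicate 2.

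An intron of Ncf1 gave the 1 lost region, 1309 bp after the start (chr5:134228213-134228427). It held 26, 24 and 24 summit reads in the control samples, levels of 35.7, 34.7 and 38.7, and no called peak in the MMF lists. The local background there was 6.54, 7.11 and 6.23 reads over 150 bp, against genome-wide backgrounds of 0.729, 0.691 and 0.620, so these peaks ranked only 1.10 to 5.20 in percentile by fold enrichment. The read number of the MMF samples at this site is not given by a peak list.

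Ncf4, the gene of p40phox, had a promoter peak at chr15:78244637-78245318 with GAGGAAGT and a C/EBP match near its summit. Its levels were 54.9, 53.5 and 61.3 in control and 71.5, 75.1 and 71.0 in MMF samples. All MMF samples lay above all controls, at 72.5 ± 2.24 against 56.6 ± 4.14 (SD, n = 3 each, exact permutation test, two-sided, p = 0.1). Limma did not call it (log2 fold change 0.36 ± 0.16, SE, adjusted p = 0.0948), the difference was 0.01 after centring, and its mean percentile rank by fold enrichment went from 66.3 in control to 57.2 in MMF lists.

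Of the other shared regions of the Ncf4 window, 2 were called higher. In the intron 3787 bp after the start (chr15:78248467-78248907) the levels were 32.9, 39.1 and 33.9 in control and 67.1, 45.3 and 50.3 in MMF samples. The log2 fold change was 0.59 ± 0.20 (SE, limma adjusted p = 0.0181), and the adjusted p was 0.0572 without control replicate 1 and 0.196 without MMF replicate 1, the highest sample. At the far end of the window, 33751 bp from the Ncf4 start and nearer to the start of Csf2rb2, the gene of an IL-3 receptor subunit (chr15:78278171-78278832), the levels were 50.8, 40.5 and 53.2 in control and 62.7, 80.8 and 79.8 in MMF samples. This region rose by 0.62 ± 0.17 (SE, limma adjusted p = 0.00359) and stayed called with any 1 sample left out. It was the 1 region of the 9 still called on ranks in the whole list. The call was lost after centring (0.275, adjusted p = 0.199) and on ranks among the shared regions (0.756 score units, adjusted p = 0.0961).

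The strongest region of Ncf4 was in its body, 13592 bp after the start (chr15:78257293-78258701), and differed little, at 106 ± 4.34 in control and 111 ± 8.73 in MMF samples (SD, n = 3 each, log2 fold change 0.06 ± 0.13, SE). The largest fall of all 26 shared regions also lay here, 5108 bp upstream of the start (chr15:78239353-78239841), at 46.7, 44.8 and 56.4 in control and 44.0, 39.7 and 35.5 in MMF samples. Every MMF level was below every control level. The log2 fold change was -0.31 ± 0.19 (SE, limma adjusted p = 0.254), and the region was called lower after centring (-0.65, adjusted p = 0.00549). The Ncf4 window held 7, 7 and 7 peaks in control and 8, 10 and 8 in MMF samples (exact permutation test, two-sided, p = 0.1), where the whole lists were 1.38 times as long with MMF.

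Rac2, the GTPase, had the most regions of the 5 genes, 12 with 7 shared, and none was called in either direction. All 7 log2 fold changes lay between 0.11 and 0.39, around the median of all shared regions. At the promoter (chr15:78572486-78573267, summit 2 bp before the start) the levels were 48.0, 57.9 and 56.4 in control and 52.8, 72.3 and 63.6 in MMF samples. The groups overlapped, at 54.1 ± 5.31 and 62.9 ± 9.74 (SD, n = 3 each, exact permutation test, two-sided, p = 0.3). The limma log2 fold change of this region was 0.21 ± 0.17 (SE, adjusted p = 0.411) and -0.14 after centring.

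The largest difference in the Rac2 window was 19048 bp upstream and nearer to the start of Cyth4 (chr15:78591720-78592166), at 37.4 ± 2.81 in control and 49.4 ± 4.09 in MMF samples (SD, n = 3 each). It missed the threshold, with a log2 fold change of 0.39 ± 0.19 (SE, limma adjusted p = 0.134). The strongest region, 16295 bp upstream (chr15:78588752-78589449), holds both the PU.1 and the ETS-IRF composite motif and measured 71.7 ± 9.24 and 84.8 ± 14.9 (SD, n = 3 each), a difference of 0.23 ± 0.15 (SE, adjusted p = 0.275). The smallest difference was 8870 bp upstream (chr15:78581286-78582247), at 0.11 ± 0.17 (SE, adjusted p = 0.676). The Rac2 window held 10.3 ± 1.15 peaks in control and 9.33 ± 1.53 in MMF samples (SD, n = 3 each, exact permutation test, two-sided, p = 0.7).

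**Figure D3:**
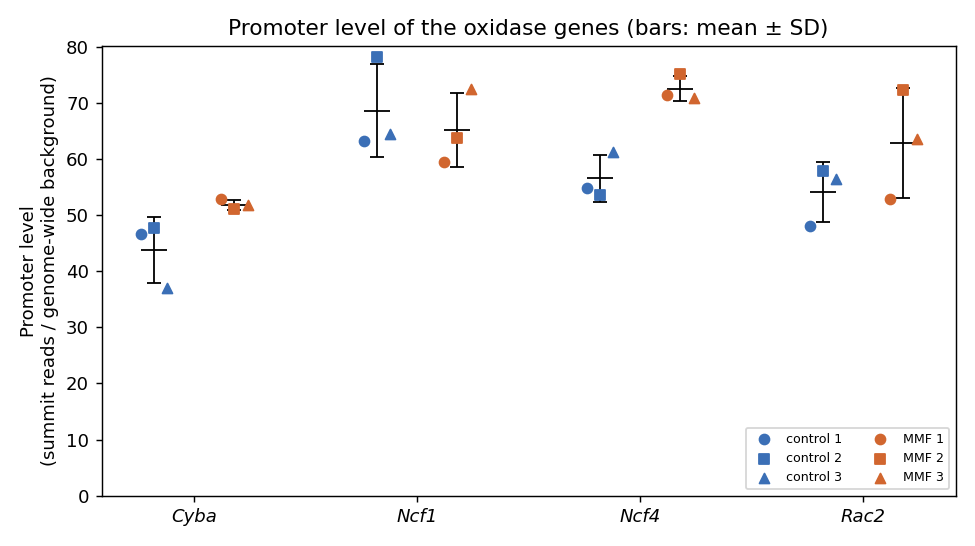
Promoter level (highest peak within 1000 bp of a start, summit reads over genome-wide background) of the 4 oxidase genes with a promoter peak, by sample, with the mean and SD of each group. The control and MMF points are apart for Cyba and Ncf4 and overlap for Ncf1 and Rac2.

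Across the 4 genes with a promoter peak, the order of the control levels was Ncf1, Ncf4, Rac2 and Cyba, at 68.6, 56.6, 54.1 and 43.8. The lowest Ncf1 control lay above the highest Ncf4 control, and the lowest Rac2 control above the highest Cyba control, whereas Ncf4 and Rac2 overlapped. With MMF the order was Ncf4, Ncf1, Rac2 and Cyba, at 72.5, 65.2, 62.9 and 51.8. Ncf4 and Ncf1 overlapped, as did Ncf1 and Rac2, and the lowest Rac2 sample equalled the highest Cyba sample. Levels over the same 150 bp were compared, so gene length does not enter. They are not scaled to the local background, which differed between these promoters. By mean percentile rank of fold enrichment, which is scaled to it, the order was Rac2, Ncf4, Ncf1 and Cyba in both groups. These ranks were 72.7, 66.3, 41.1 and 21.3 in control and 74.4, 57.2, 32.4 and 29.1 in MMF lists.

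Without centring, the called oxidase regions lay outside promoters. Of the 7 shared regions in a promoter of any protein-coding gene 0 were called, and of the 19 outside promoters 9 were called higher and 0 lower. After centring, 2 promoter regions, those of Ncf1 and Mvd, were among the 3 called lower. Over all shared regions outside promoters 28.4% were called higher and 1.77% lower. Over the strongest shared promoter region of each protein-coding gene 3.26% were called higher and 7.11% lower. The 7 oxidase regions and the promoter medians that follow instead take in every shared region in a promoter. The median log2 fold change of the oxidase regions was 0.40 outside promoters beside 0.30 for all such regions, and 0.17 in promoters beside -0.09. The 5 windows together held 34.0 ± 1.73 peaks in control and 36.7 ± 4.51 in MMF samples (SD, n = 3 each, exact permutation test, two-sided, p = 0.5), a ratio of 1.08 where the whole lists had 1.38.

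The 7 motifs were sought on both strands in 200 bp around each summit. GAGGAAGT was in 7 of the 45 regions (15.6%) and in 8.28% of all regions, and TTGCNNAA was in 4 (8.89%) and in 15% of all. The ETS-IRF composite motif was in 3 (6.67%) beside 3.27% of all, CCAAT in 10 (22.2%) beside 23.5%, TGTGGT in 8 (17.8%) beside 25.8%, TGANTCA in 7 (15.6%) beside 16.1% and AGATAA in 2 (4.44%) beside 6.92%. The motif GAGGAAGT shares letters with other ETS sites, and the composite can overlap it. Of the 9 called regions only the Cybb region at 6437 bp holds GAGGAAGT in this window, whose counts were 4 of 45 in 100 bp and 7 of 45 in 400 bp. Among 32851 RefSeq promoters of 300 bases the composite motif that the Cybb promoter holds was in 2.72%. RefSeq promoters of Cybb, Cyba and Ncf1 were matched, and Ncf4 and Rac2 are named only.

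The genes whose promoter levels were most like those of an oxidase gene over the 6 samples were found by the distance between log2 levels after each gene was centred on its mean, among 11633 genes. For Ncf4 these were Git2 and Ankrd13a, which share 1 region, and Lmo2, which encodes a transcription cofactor of blood progenitors, at distances of 0.09 to 0.10. For Ncf1 they were Gmcl1, Ppp2r3a and Tmem87b (0.08 each), for Cyba Slc2a6, Zfp953 and Pink1 (0.11 to 0.13), and for Rac2 Strn4 and Sema3f (0.13 each). The likeness describes 6 samples that share their libraries and depth.

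The wider pathway was described by 4 lists with 56 genes, of which 45 had a shared promoter region to test. Of these 3 were called higher and 2 lower, where 3.26% of all promoter regions were higher and 7.11% lower. Of the 20 regulators and partners of the oxidase, each had a promoter peak in all 6 lists, 19 could be tested, 2 were higher and 0 lower (3.26% and 7.11% of all promoter regions), with a median log2 fold change of -0.03 beside -0.10 for all promoters. Hvcn1, the voltage-gated proton channel that offsets the charge the oxidase moves, stood at 13.7, 11.6 and 16.1 in control and 41.8, 49.6 and 57.7 in MMF samples. The groups were far apart, and the log2 fold change was 1.79 ± 0.24 (SE, limma adjusted p = 2.23e-08, after centring 3.95e-06). Pik3cg, the catalytic subunit of PI3-kinase gamma, which acts upstream of oxidase activation, stood at 54.9, 57.9 and 64.5 in control and 92.4, 106 and 130 in MMF samples. It rose by 0.87 ± 0.15 (SE, limma adjusted p = 3.51e-06, after centring 0.00333).

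Other regulators did not pass the test. Cybc1, the chaperone of the membrane heterodimer, had the lowest log2 fold change of the list at -0.37 ± 0.16 (SE, limma adjusted p = 0.0741). Rac1, the GTPase relative of Rac2 found in most tissues, stood at -0.27 ± 0.16 (adjusted p = 0.232), and Prkcd, a kinase that phosphorylates p47phox, at -0.18 ± 0.16 (adjusted p = 0.443). After centring Cybc1 (adjusted p = 0.000235), Rac1 (0.00172) and Prkcd (0.00677) were called lower, as were Arhgdia, Pak1, Pak2, Irak4 and Mapk14. That fit called 25.3% of all shared regions lower, and the share among all promoter regions was not counted. The median of all promoters was -0.10 before centring, which took off a difference of sample medians of 0.34. Whether these calls are particular to the regulators was not tested.

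Among the 10 isoforms of other tissues and their partners, 7 had no promoter peak in any list, Nox1, Nox3 and Nox4 included. Noxo1, the organiser of the Nox1 oxidase, was lower with MMF, at 63.1, 62.2 and 71.0 in control and 33.0, 43.9 and 45.8 in MMF samples (log2 fold change -0.68 ± 0.18, SE, limma adjusted p = 0.00258). The highest value of that list was Rac3 at 0.26 ± 0.19 (adjusted p = 0.334). Of 16 genes for the removal of superoxide and peroxide, 14 had a peak in all lists, and 1, the glutaredoxin gene Glrx, was higher (0.50 ± 0.18, SE, limma adjusted p = 0.0276) while Prdx5 was lowest at -0.30 ± 0.12 (adjusted p = 0.0651). Of the 10 genes of NADPH supply all had a peak in every list and 1, the mitochondrial isocitrate dehydrogenase gene Idh2, was lower (-0.51 ± 0.17, SE, limma adjusted p = 0.0216), and the highest was Idh1 at 0.12 ± 0.13 (adjusted p = 0.529). Glrx lost its call after centring (adjusted p = 0.525), and Idh2 kept it. The centred fit also called Sod1, Sod2, Cat, Gpx1, Gpx4, Prdx1, Prdx3, Prdx5, Txn1 and Txnrd1 lower. So it did G6pdx, Pgd, Rpia, Tkt and Taldo1 of NADPH supply. That fit called 25.3% of all shared regions lower, a share that mixes promoters with other regions. The share among promoter regions alone was not counted, so whether these calls are particular to the 2 lists was not tested.

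**Figure D4:**
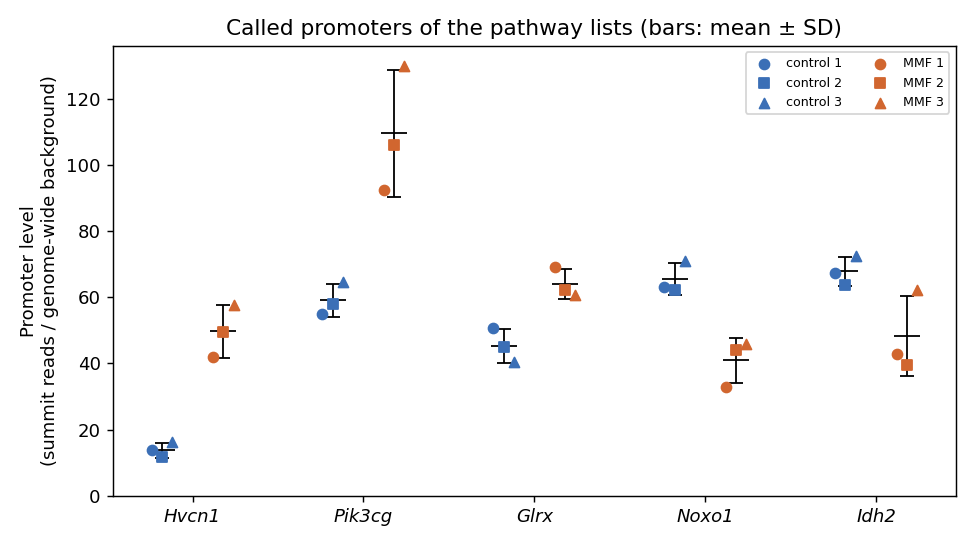
Promoter level (summit reads over genome-wide background) by sample of the 5 genes of the pathway lists that limma called, with the mean and SD of each group. Hvcn1, Pik3cg and Glrx are higher in all MMF samples than in all controls, and Noxo1 and Idh2 are lower in all MMF samples than in all controls.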

How the data were processed

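ATAC-seq was analysed from 3 control and 3 MMF lists. Per the labels' processing notes and the methods, the authors trimmed reads (FastQC, Trim Galore), mapped them to mm10 (Bowtie2) and ran MACS2 on every sample separately, with versions and options not given in the sources used here. The deposited fold enrichment is a ratio of summit reads to local background, the deposited p and q are −log10 values, and the deposited score was not used. PePr was not repeated.

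Peaks on chromosomes 1 to 19, X and Y were merged over the lists at an overlap of 1 bp. Summit reads and background were solved from fold enrichment and −log10 p. Log2 of (reads + 0.5) over the genome-wide background was tested in shared regions with limma 3.58.1 in R 4.3.3 (eBayes with trend, two-sided, Benjamini-Hochberg over all 41182). An earlier analysis of these data had used rank scores, which are an alternative here. Single values were tested by exact permutation. Promoters were 1000 bp on either side of protein-coding starts of the GENCODE M21 basic set. Motifs were read with pysam 0.24.0. No list was a copy of another, with at most 681 identical intervals in a pair. Steps were tested on simulated data.

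The regions named were the promoter, the highest, each gained, lost or called one and the largest rise and fall of each window. List genes named were those called, and otherwise the highest and lowest. Genes called only after centring, further regions of Cybb and Cyba, Rac1, Prkcd and some markers were chosen after their values were seen. The oxidase genes and lists were chosen with earlier results of these data known. Alternatives covered scale, centring, threshold, list length, overlap, flank, promoter and motif width, the replicate number as a block and each sample left out. Some genes of the marker lists and of the search for like promoters are not reported here.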

Additional observations from a re-analysis of the deposited data

How the results depend on the processing

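Summit reads of called peaks are the only values in these lists, so a region without a peak has no value, and weak regions such as those of Cybb rest on as few as 4 reads. The largest dependence was on scale. Centring on sample medians gave 3591 regions higher and 10420 lower, and 2 oxidase regions higher and 3 lower. Ranks in the whole list gave 3186 and 97, with 1 oxidase region higher, and ranks among shared regions gave 931 and 235, with 0 oxidase regions. With equal list length, 2020 regions were gained and 1175 lost, 0 and 2 of them oxidase regions, and the 5 windows held fewer peaks with MMF (a difference of -2) in place of 2.67 more. With a peak covering 50% of the region, chosen after seeing the data, 375 regions were lost and 4282 higher, with 2 oxidase regions gained and 2 higher. The median promoter difference of the oxidase genes, 0.23, became -3.50 in points of percentile rank by fold enrichment and -0.12 after centring. In 100 bp, 4 oxidase regions held the PU.1 motif. The cause of these changes was not tested, apart from shorter lists, stricter overlap and narrower windows leaving fewer peaks or bases by construction.

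Named differences that changed sign did so mostly on ranks among shared regions: the Cyba promoter (-0.06), the Ncf1 region 3158 bp upstream (-0.10), Ncf4 at 125, 3787 and 13592 bp (-0.66, -0.22 and -0.21), and Rac2 at 19048, 16295 and 8870 bp upstream and at the promoter (-0.058, -0.13, -0.036 and -0.23), all in score units. The Ncf4 promoter region was -0.24 on ranks in the whole list and its level was lower by percentile rank (-9.12). After centring, the Cyba promoter (-0.10 for the region and -0.10 for the level), Ncf4 at 13592 bp (-0.28), Rac2 at 16295 and 8870 bp upstream (-0.11 and -0.23) and the Rac2 promoter (-0.14 for the region, -0.15 for the level) changed sign. None of these passed the threshold in the reversed direction.

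Leaving out each sample in turn gave 8333 to 10604 regions gained, 352 to 594 lost, 6558 to 8888 higher and 786 to 1165 lower, and among oxidase regions 1 to 3 gained, 1 to 2 lost, 6 to 10 higher and 0 lower. The number lost exceeded the main one by over 1.5 times in every such fit, the 10604 gained and the 3 oxidase regions gained were without MMF replicate 3, the 786 lower without MMF replicate 1, and 2 oxidase regions were gained without control replicate 3. Oxidase regions lost were 2 without control replicate 3 and without MMF replicate 1. With a sample left out, fewer lists must hold or lack a peak for a region to count as gained or lost. Higher counts of both are thus largely by construction. The median promoter difference ran from 0.18 to 0.29 and the difference in window peaks from 0.50 to 5.00. Differences of the Mvd start in the Cyba window ran from -0.23 to 0.002, of the Ncf1 promoter region from -0.15 to 0.024 (its level from -0.15 to 0.026) and of Rac2 at 8870 bp upstream from -0.011 to 0.24. Of the 9 called regions, 4 stayed called in all 6 such fits. Other settings (-log10 q of at least 2, overlap of 50% of the shorter, which cannot change a region here, and flanks of 10 and 50 kb) kept each count within 1.5 times.

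No pairing by replicate number was seen: same-number correlations of deviations were -0.001, 0.004 and -0.002. These values cannot show how the samples were collected, and the labels do not say whether a number marks a shared mouse or batch. With the replicate block 8821 regions were higher and 1302 lower, and all 9 oxidase regions stayed called.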
